A study of Homo sapiens with 12 samples.

Results

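Transcript levels of 10 genes of fatty acid and triglyceride synthesis were followed in Huh-7 xenograft tumours that received the kinase inhibitor CS2164, radiation, or both. The 10 genes were SREBF1, ACLY, ACACA, FASN, ELOVL6, SCD, GPAM, DGAT2, PNPLA3 and ANGPTL8, out of 19988 protein-coding genes in the deposited table. The set was chosen by its leading members: GPAM and ANGPTL8 were picked because they were among the genes that were most reduced after radiation in these same libraries. Their levels under radiation are therefore given as a description, without p-values; ranks and calls that led to the choice are named only to show how it was made. The other 8 genes joined them by function, with earlier results of these data known. All 10 genes passed the filter on low counts.

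Huh-7 is an established human hepatocellular carcinoma line, grown here as subcutaneous grafts in nude mice of the BALB/c strain, aged 6 weeks. Dosing began at a mean tumour volume of 150 to 200 mm3. Each of 4 groups had 3 libraries. Control animals were gavaged with the co-solvent of the drug. The CS2164 group received CS2164, an oral inhibitor of several kinases also known as chiauranib, at 10 mg/kg per day. The IR group received radiation in 10 daily fractions of 2 Gy on weekdays. The CS2164_IR group received both. Sodium pentobarbital anaesthesia before radiation is given in the labels for all mice. The host lacks T cells, as nude mice do, and all tumours came from 1 line. The cell line label reads Huh-7 for all 12 samples, whereas the titles give Huh-8 for CS2164, Huh-9 for IR and Huh-10 for CS2164_IR tumours; which is right was not tested.

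Liver cells make fatty acids from citrate. ACLY splits citrate into acetyl-CoA, ACACA carboxylates it to malonyl-CoA, FASN builds palmitate, ELOVL6 lengthens it and SCD introduces the double bond of oleate. GPAM attaches the first fatty acid to glycerol-3-phosphate and DGAT2 the last one to make triglyceride, while PNPLA3 acts on triglyceride at the lipid droplet. SREBF1 encodes SREBP1, the membrane-bound transcription factor that insulin and low sterol release to switch on these enzymes. ANGPTL8 is a secreted, insulin-responsive liver protein that takes part in the inhibition of lipoprotein lipase. In the liver, ANGPTL8, PNPLA3, GPAM, SCD and FASN are known as targets of SREBP1c.

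Promoter sequences are shown for the 2 genes that the choice rests on, GPAM and ANGPTL8, and for SCD, ACLY and SREBF1, which rose with CS2164, so that both patterns can be set beside their upstream DNA. Each runs 5′ to 3′ on the gene's own strand, from 250 bases before to 50 bases after the RefSeq start on GRCh38.p14. Capitals mark matches on either strand to the CCAAT box (CCAAT) or the GC box (GGGCGG). GPAM lies at chr10:112183716-112184015 on the minus strand, ANGPTL8 at chr19:11239369-11239668 on the plus strand, SCD at chr10:100346983-100347282 on the plus strand, ACLY at chr17:41918973-41919272 on the minus strand and SREBF1 at chr17:17836937-17837236 on the minus strand.
GPAM: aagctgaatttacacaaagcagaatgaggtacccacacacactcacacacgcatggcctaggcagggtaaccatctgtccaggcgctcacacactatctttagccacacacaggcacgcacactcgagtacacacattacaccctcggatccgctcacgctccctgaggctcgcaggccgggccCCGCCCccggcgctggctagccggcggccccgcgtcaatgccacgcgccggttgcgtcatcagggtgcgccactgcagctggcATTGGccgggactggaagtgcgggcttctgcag
ANGPTL8: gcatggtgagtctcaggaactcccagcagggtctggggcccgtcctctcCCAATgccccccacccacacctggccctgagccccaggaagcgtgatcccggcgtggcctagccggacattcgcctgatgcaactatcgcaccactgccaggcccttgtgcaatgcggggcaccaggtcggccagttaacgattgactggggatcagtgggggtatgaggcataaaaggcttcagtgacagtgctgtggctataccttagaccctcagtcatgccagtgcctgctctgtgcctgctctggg
SCD: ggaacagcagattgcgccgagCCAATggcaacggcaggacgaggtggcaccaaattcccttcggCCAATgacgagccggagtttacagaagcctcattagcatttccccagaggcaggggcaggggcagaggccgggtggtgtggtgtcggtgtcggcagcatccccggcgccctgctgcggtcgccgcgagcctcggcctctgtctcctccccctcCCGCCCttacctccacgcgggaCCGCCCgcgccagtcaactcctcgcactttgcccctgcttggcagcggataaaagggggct
ACLY: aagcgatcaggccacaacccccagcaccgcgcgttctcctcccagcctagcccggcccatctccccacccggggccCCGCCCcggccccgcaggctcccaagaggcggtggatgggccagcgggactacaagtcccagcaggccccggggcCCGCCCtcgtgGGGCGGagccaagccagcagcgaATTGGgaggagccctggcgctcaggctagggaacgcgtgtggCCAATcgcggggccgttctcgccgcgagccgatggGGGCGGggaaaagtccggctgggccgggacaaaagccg
SREBF1: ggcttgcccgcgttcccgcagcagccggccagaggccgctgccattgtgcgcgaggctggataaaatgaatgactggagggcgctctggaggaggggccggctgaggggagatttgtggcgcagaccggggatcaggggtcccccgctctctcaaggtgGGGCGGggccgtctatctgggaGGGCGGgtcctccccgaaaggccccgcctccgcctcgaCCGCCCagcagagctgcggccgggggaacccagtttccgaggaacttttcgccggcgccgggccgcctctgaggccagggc

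RefSeq windows were at hand for 7 of the 10 genes, which also include ACACA and ELOVL6, with 10 start sites in all. CCAAT boxes stood in 7 of these 10 windows, from 5 of the 7 genes, against 34.6% of 35116 human promoters of the same length. SCD carried one at 229 and one at 186 bases before its start, ACLY at 65 and 23 bases before, ANGPTL8 at 201 bases before, and GPAM a reverse match 18 bases after. GC boxes stood in 8 of the 10 windows, from 6 genes, all but ANGPTL8, against 45% of promoters. ACACA has 3 of the windows and ACLY 2, which overlap. The sterol regulatory element of SREBP proteins, searched as TCACNCCAC, was in 0 of the 10 windows and in 1.13% of all promoters, and the E-box CACGTG was in 0 of 10 and in 7.26%. No match of one motif shared bases with a match of another in the printed sequences. A match of letters is a description and not a shown binding site.

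The 12 libraries held 12886607 to 16890346 counts. The liver cell label was checked on hepatocyte genes, of which ALB was at 12542 to 25345 CPM and AFP at 9714 to 21797 CPM. TMM-scaled CPM, counts relative to library size, are used for levels of one gene across libraries, and FPKM, which divides by gene length, for levels between genes. Control replicate 2 and CS2164 replicate 1 stood apart from their mates, with Spearman correlations of 0.970 to 0.979 against 0.994 between the mates; calls that end without either are marked. Values are means ± SD or log2 fold changes ± SE with n = 3 libraries per group. The labels do not say how many animals the 3 libraries of a group come from, so p-values measure the spread between libraries. In these bulk samples, fewer cells of a type and less RNA per cell cannot be told apart. Adipocyte markers, the other fat-making cell type, held 0.00209% to 0.00407% of the counts, with 3 of 10 genes tested. ADIPOQ, CIDEA and RETN were at 0 in every library. CFD (151 to 354 reads), CIDEC (61 to 233 reads) and PLIN1 (46 to 171 reads) had reads in every library. Fibroblast and pericyte markers, 6 of 8 tested and none at 0 throughout, held 0.00373% to 0.00437% of counts in control. They held 0.00507% to 0.00798% with CS2164, 0.00573% to 0.00894% with IR and 0.00614% to 0.00720% with both. Every treated library thus lay above every control library, and COL1A2 had the most reads of the 8 genes, 279 to 1023. Macrophage and leukocyte markers, 2 of 6 tested, held 0.00331% to 0.00459% in control and 0.00323% to 0.00429% with CS2164. With IR they held 0.00456% to 0.00858% and with both 0.00427% to 0.00797%. Host cells are of the mouse and the counts are of human genes, so these lists cannot gauge host cells. The part of these markers in the differences from control below was not tested.

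Per length, SCD was the most abundant of the 10 in control tumours at 136 ± 17.3 FPKM. FASN followed at 57.1 ± 14.4 FPKM, ACLY at 39.7 ± 10.9, SREBF1 at 21.8 ± 1.13, DGAT2 at 12.0 ± 3.01, GPAM at 8.76 ± 1.02, ELOVL6 at 6.69 ± 0.552, ACACA at 3.88 ± 0.923, ANGPTL8 at 2.52 ± 0.822 and PNPLA3 at 2.28 ± 0.761 FPKM. The control ranges of FASN and ACLY and of DGAT2 and GPAM overlapped, although FASN was above ACLY and DGAT2 above GPAM within each control library. ANGPTL8 changed places with ACACA and with PNPLA3 between control libraries. Together the 10 genes took 0.192% ± 0.0319 of all counts in control, 0.329% ± 0.0192 with CS2164, 0.204% ± 0.0109 with IR and 0.208% ± 0.0156 with both. The share in CS2164 tumours, 0.309% to 0.346%, lay above that of the other 9 libraries, and FASN and SCD made up 62.3% to 72.5% of it in any library.

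**Figure D1:**
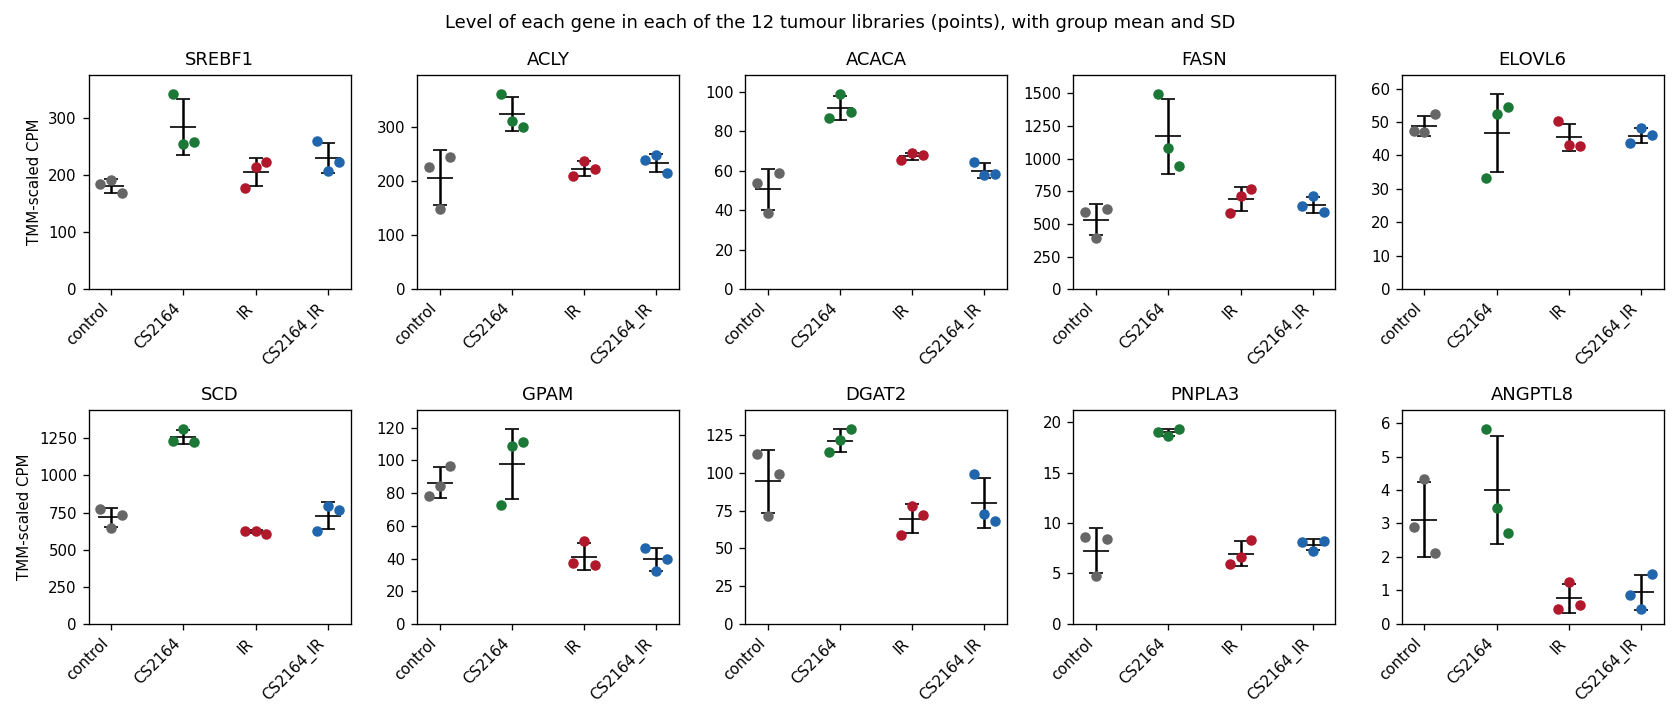
TMM-scaled CPM (y axis, from 0) of the 10 genes in every library (points, in replicate order), with the mean (bar) and SD (whiskers) of each group of 3. FASN, SCD, ACACA, ACLY, DGAT2 and PNPLA3 have their 3 highest libraries in the CS2164 group, while GPAM and ANGPTL8 are lower in all 6 irradiated libraries than in all 6 others.

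GPAM (ENSG00000119927, GRCh38 chromosome 10, 112149864 to 112215377), which acts at the first step of triglyceride assembly, was at a lower level after radiation. Its control libraries held 78.2, 84.3 and 96.6 CPM and its CS2164 libraries 72.9, 109 and 111 CPM. The IR libraries held 37.3, 50.6 and 35.8 CPM and the CS2164_IR libraries 46.5, 32.6 and 39.8 CPM. Every irradiated library was below every unirradiated one. Mean CPM was 2.10-fold lower in IR than in control and 2.47-fold lower in CS2164_IR than in CS2164, log2 differences of -1.07 and -1.30. Among the genes that passed the threshold downwards, GPAM ranked 8th of 31 by fold in IR against control and 12th of 563 for radiation averaged over both arms, which is the property it was picked for.

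ANGPTL8 (ENSG00000130173, chromosome 19, 11237450 to 11241943) was the weakest expressed of the genes by CPM. Its levels were 2.91, 4.34 and 2.11 CPM in control and 5.82, 3.47 and 2.71 CPM with CS2164. In irradiated tumours it held 0.444, 1.27 and 0.576 CPM in IR and 0.876, 0.458 and 1.51 CPM in CS2164_IR. The highest irradiated library lay below the lowest unirradiated one. These values rest on few reads, 7 to 21 per IR library and 34 to 69 per control library. Mean CPM was 4.09-fold lower in IR than in control and 4.22-fold lower in CS2164_IR than in CS2164. ANGPTL8 had the largest fold of the 563 genes called lower for radiation averaged over both arms, but in IR against control it was not among the 31 called genes.

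Full separation of irradiated from unirradiated libraries in the downward direction was seen in 1.57% of tested genes. ANGPTL8 shares 350 exon bases, 28.6% of its own exons, with DOCK6 on the opposite strand, and the library protocol does not mark strand, so reads there cannot be assigned. DOCK6 held 41.0 ± 5.85 CPM in control, 58.6 ± 15.3 in IR, 65.5 ± 15.3 in CS2164 and 61.6 ± 4.91 in CS2164_IR. Hepatocyte markers as a list of 12 genes took 6.35% to 7.24% of counts in control, 4.47% to 5.01% in IR, 5.34% to 7.36% in CS2164 and 5.03% to 7.23% in CS2164_IR; their part in the lower GPAM and ANGPTL8 was not tested.

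Neither gene passed the test with CS2164. The choice was not made on this comparison, but its libraries also enter the radiation comparisons that led to the choice. The p-values given here are therefore not independent of the choice. The CS2164 difference from control was 0.18 ± 0.18 for GPAM (95% interval -0.21 to 0.56, edgeR quasi-likelihood adjusted p = 0.519) and 0.36 ± 0.42 for ANGPTL8 (-0.52 to 1.23, adjusted p = 0.574). On top of radiation, CS2164 came with a difference of -0.06 ± 0.19 for GPAM (-0.45 to 0.33) and 0.29 ± 0.53 for ANGPTL8 (-0.83 to 1.40). The interaction, the difference in radiation effect with and without CS2164, was -0.24 ± 0.26 for GPAM and -0.07 ± 0.70 for ANGPTL8. It holds the radiation values that the choice used, so for these genes it is a description without p-values. The interaction interval of the fit, also only a description here, ran from -0.78 to 0.31 for GPAM and from -1.54 to 1.40 for ANGPTL8.

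The comparison of CS2164 with control set other members apart. FASN, SCD, ACACA, ACLY, SREBF1 and PNPLA3 rose, 6 of the 10 genes, and 0 fell. Across all 13521 tested genes 10.4% rose and 9.32% fell in this comparison (1409 and 1260 genes; 1131 and 1543 with upper-quartile scaling, under which these 6 genes rose as well). Without control replicate 2 these counts were 419 and 202, without CS2164 replicate 1 920 and 756, and with the compared groups alone 200 and 85; 5 of the 6 rises were kept without control replicate 2. The median log2 difference was 0.65 over the 10 genes and 0.73 without GPAM and ANGPTL8, against -0.01 over all tested genes. In 6 genes the 3 CS2164 libraries lay above all other 9 libraries, which 9.44% of tested genes did. The p-values below are adjusted over all tested genes, and the genes were picked with earlier results known.

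SREBF1 (ENSG00000072310, chromosome 17, 17810399 to 17837002), the regulator, held 183, 191 and 168 CPM in control and 341, 254 and 257 CPM with CS2164. IR libraries held 177, 214 and 222 CPM and CS2164_IR libraries 259, 207 and 221 CPM. All CS2164 libraries were above control, but 2 of them were below the highest CS2164_IR library. SREBF1 rose by 0.65 ± 0.15 with CS2164 (adjusted p = 0.00965). SREBF1 has a GC content of 63.5%, at the 93.7th percentile of tested genes, and with GC and length trends removed the difference was 0.12 with an adjusted p of 0.465. It shares 556 exon bases, 6.9% of its own, with RAI1 on the opposite strand, which rose by 0.93 ± 0.17 (adjusted p = 0.00477).

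ACLY (ENSG00000131473, chromosome 17, 41866908 to 41930542), which supplies acetyl-CoA, held 226, 149 and 244 CPM in control and 361, 312 and 301 CPM with CS2164. Irradiated tumours held 209, 238 and 223 CPM without and 239, 248 and 215 CPM with CS2164. The rise of 0.65 ± 0.16 (adjusted p = 0.0132) ended without control replicate 2, the lowest library, where it was 0.46 with an adjusted p of 0.0507. In a fit of the 6 CS2164 and control libraries alone neither ACLY (adjusted p = 0.0768) nor SREBF1 (adjusted p = 0.0603) passed.

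ACACA (ENSG00000278540, chromosome 17, 37084988 to 37406818), the rate-limiting carboxylase, held 53.8, 38.7 and 59.1 CPM in control and 86.7, 98.8 and 89.8 CPM with CS2164. In IR it held 65.4, 68.9 and 67.9 CPM, above every control library, and in CS2164_IR 64.3, 57.8 and 58.1 CPM, below every CS2164 and every IR library. It rose by 0.86 ± 0.15 with CS2164 (adjusted p = 0.00455). This call held without each of the 12 libraries in turn, with differences of 0.70 to 0.99.

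FASN (ENSG00000169710, chromosome 17, 82078333 to 82098332), the synthase, held 588, 395 and 612 CPM in control against 1493, 1083 and 941 CPM with CS2164. It held 585, 714 and 769 CPM with IR and 633, 714 and 590 CPM with both treatments. Every CS2164 library exceeded the other 9. FASN rose 2.21-fold in mean CPM, by 1.14 ± 0.20 on the log2 scale (adjusted p = 0.00455). Its GC content, 65.3%, is at the 97.2th percentile, and with GC and length trends removed the rise was 0.58.

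ELOVL6 (ENSG00000170522, chromosome 4, 110045846 to 110199199), the elongase, was the member whose level differed least between groups. It held 47.2, 47.1 and 52.4 CPM in control, 33.2, 52.3 and 54.4 with CS2164, 50.2, 43.2 and 42.9 with IR and 43.7, 48.1 and 46.0 with both. The CS2164 difference was -0.07 ± 0.17 (95% interval -0.42 to 0.28, adjusted p = 0.809), so a rise as large as that of ACLY lay outside the interval. The low value came from CS2164 replicate 1, without which the difference was 0.13.

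SCD (ENSG00000099194, chromosome 10, 100347124 to 100364834), the desaturase, held 774, 645 and 733 CPM in control and 1234, 1312 and 1227 CPM with CS2164. It held 628, 625 and 608 CPM with IR, each below every control library, and 623, 795 and 768 CPM with both. SCD rose by 0.81 ± 0.14 with CS2164 (adjusted p = 0.00455). With GC and length trends removed the rise was 0.84, and over all alternatives it ranged from 0.74 to 0.87.

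DGAT2 (ENSG00000062282, chromosome 11, 75759512 to 75801535), which makes triglyceride, held 112, 71.7 and 99.2 CPM in control and 114, 122 and 129 CPM with CS2164. The 3 CS2164 libraries were above the other 9, but the difference of 0.36 ± 0.17 did not pass the test (adjusted p = 0.149) and was 0.05 with GC and length trends removed. With radiation it held 59.1, 78.0 and 72.0 CPM in IR and 99.2, 72.9 and 68.3 CPM in CS2164_IR.

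PNPLA3 (ENSG00000100344, chromosome 22, 43923739 to 43964488), the droplet lipase and acyltransferase, held 8.66, 4.71 and 8.45 CPM in control. The CS2164 libraries held 19.0, 18.6 and 19.3 CPM, the tightest group of the gene, and the IR and CS2164_IR libraries 5.90 to 8.35 CPM. PNPLA3 rose 2.61-fold in mean CPM, by 1.38 ± 0.22 (adjusted p = 0.0040), the largest difference among the 10 genes, and by 1.34 with GC and length trends removed. It shares 148 exon bases, 4.6% of its own, with SAMM50 on the same strand, which fell by 0.50 ± 0.14 (adjusted p = 0.0256).

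Differences from control ran with the GC content of genes. Over 13501 tested genes, which are not independent replicates, Spearman's rho of the log2 difference with GC content was 0.461 for CS2164, 0.444 for IR and 0.490 for CS2164_IR, and the median GC content was 49.2%. With these trends and those of gene length removed from each library, SCD at 47.1% and ACACA at 48.5% GC rose by 0.84 and 0.62, PNPLA3 at 55.2% by 1.34 and ACLY at 53.2% by 0.48, and FASN at 65.3% by 0.58, whereas the call of SREBF1 ended. Of the 6 rises, 5 passed under that correction. What part the trend has in the differences was not tested further.

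**Figure D2:**
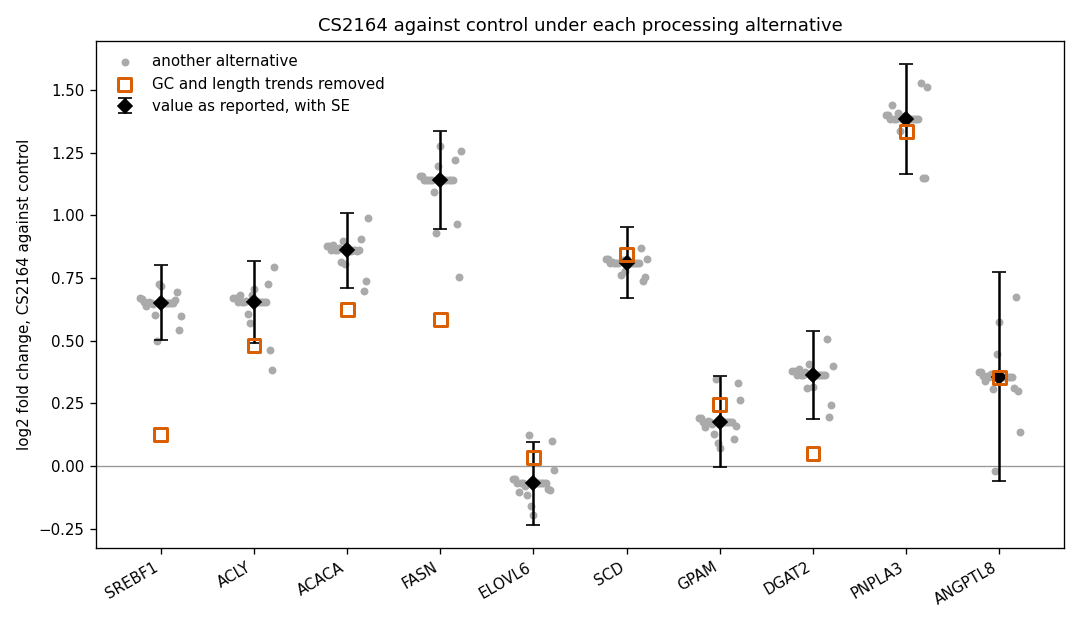
Log2 fold change of CS2164 against control (y axis) for the 10 genes as reported (diamonds, with SE), under each alternative of scaling, filtering, model or omitted library (grey points), and with GC and length trends removed (open squares). The squares of SREBF1 at 0.12, FASN at 0.58 and DGAT2 at 0.05 lie well below the diamonds, those of SCD and PNPLA3 near them.

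With radiation alone most of the set did not pass the test. In IR against control, 0 of the 8 genes not picked for this contrast were called either way, where 0.229% of tested genes were lower and 0.207% higher, with a median of 0.03 against -0.01 for all tested genes. The 1 call among all 10 genes, GPAM, was used in the choice and nothing is read from it. ACACA at 0.42 ± 0.15 (adjusted p = 0.193) and DGAT2 at -0.44 ± 0.18 (adjusted p = 0.245) came nearest. FASN was at 0.37 ± 0.19, SCD at -0.21 ± 0.14, SREBF1 at 0.18 ± 0.15, ACLY at 0.11 ± 0.16, ELOVL6 at -0.11 ± 0.17 and PNPLA3 at -0.06 ± 0.23. With GC and length trends removed DGAT2 was at -0.58 and passed, with an adjusted p of 0.0445.

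The combination against control likewise gave 0 calls among those 8 genes, where 0.0444% of tested genes were lower and 0.148% higher. GPAM, the 1 call among all 10, was picked for its level after radiation in these libraries, and nothing is read from it here either. SREBF1 at 0.34 ± 0.15 had the lowest p of the other 8 (adjusted p = 0.270). FASN differed from control by 0.28 ± 0.19, ACACA by 0.25 ± 0.15, PNPLA3 by 0.11 ± 0.22 and SCD by 0.02 ± 0.14. This comparison, IR against control and CS2164 against control share the control libraries.

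Tumours that received radiation on top of CS2164 had lower lipogenic transcripts than those with CS2164 alone. The same CS2164 libraries carry the rises against control, so these falls are not independent of those rises. In CS2164_IR against CS2164, 5 of the 8 genes other than GPAM and ANGPTL8 fell and 0 rose, where 5.91% of tested genes fell and 3.78% rose (799 and 511 genes; 614 and 750 with upper-quartile scaling, under which DGAT2 no longer passed). These counts rested on single libraries, with 213 lower and 97 higher without CS2164_IR replicate 3, 257 and 98 without CS2164_IR replicate 1, 480 and 374 without CS2164_IR replicate 2, and 542 or 543 lower without CS2164 replicate 2 or 3. The median was -0.61 over the 8 genes against 0.04 over all tested genes. PNPLA3 fell by 1.27 ± 0.22 (adjusted p = 0.00346), FASN by 0.86 ± 0.19 (adjusted p = 0.0131), SCD by 0.79 ± 0.14 (adjusted p = 0.00441), ACACA by 0.61 ± 0.15 (adjusted p = 0.0172) and DGAT2 by 0.60 ± 0.18 (adjusted p = 0.0386). ACLY at -0.47 ± 0.16 (adjusted p = 0.0713), SREBF1 at -0.31 ± 0.15 and ELOVL6 at -0.02 ± 0.17 did not pass.

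SCD and PNPLA3 kept this call without each library in turn. FASN lost it without CS2164_IR replicate 1 (-0.85) or replicate 3 (-0.80). ACACA lost it without CS2164 replicate 2 (-0.56) or CS2164_IR replicate 2 (-0.58) or 3 (-0.59). DGAT2 lost it in 6 of 12 such fits, with values of -0.50 to -0.60, and with GC and length trends removed, at -0.41. Those 6 fits left out CS2164 replicate 2 or 3, IR replicate 2 or 3, or CS2164_IR replicate 2 or 3.

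Averaged over both arms, radiation came with lower DGAT2, PNPLA3 and SCD. These 3 of the 8 genes not picked for radiation passed downwards and 0 upwards, where 4.16% of tested genes fell and 3.45% rose (563 and 467 genes; 423 and 626 with upper-quartile scaling). Without 1 library these counts ran from 228 lower and 217 higher (without IR replicate 1) to 1270 and 1127 (without CS2164 replicate 1), with 257 and 190 without IR replicate 3 and 907 and 689 without control replicate 2. SCD fell by 0.50 ± 0.10 (adjusted p = 0.00758), DGAT2 by 0.52 ± 0.12 (adjusted p = 0.0184) and PNPLA3 by 0.67 ± 0.16 (adjusted p = 0.0166). The call of PNPLA3 ended without control replicate 1 (-0.60) or IR replicate 1 (-0.62), and that of DGAT2 without control replicate 1 (-0.45), IR replicate 1 (-0.47) or CS2164_IR replicate 3 (-0.47). For PNPLA3 the averaged value joins -0.06 without CS2164 and -1.27 with it.

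**Figure D3:**
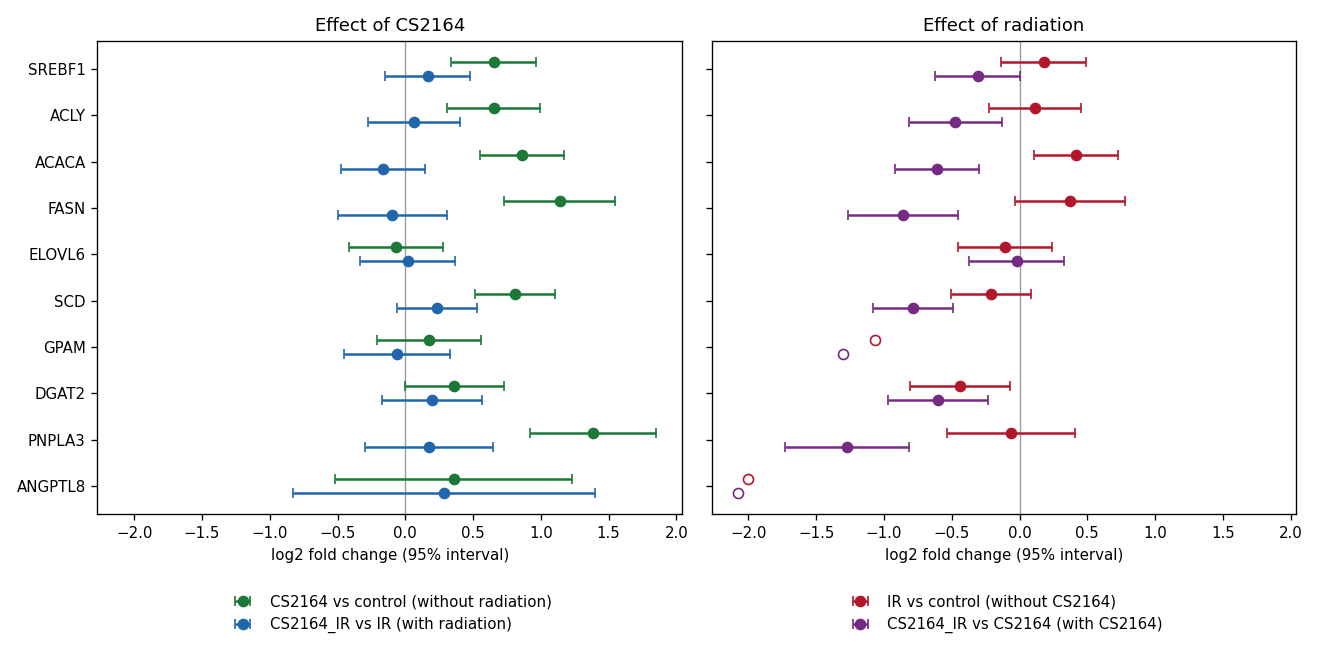
Log2 fold change (x axis) of each gene for CS2164 without and with radiation (left) and for radiation without and with CS2164 (right), with 95% intervals from the edgeR fit. Open circles without an interval mark GPAM and ANGPTL8 under radiation, which was used to pick them; on the left the intervals of SREBF1, ACLY, ACACA, FASN, SCD and PNPLA3 lie above 0 without radiation and include 0 with it.

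On top of radiation, CS2164 was followed by no call in the set. In CS2164_IR against IR, 0 of the 10 genes passed in edgeR and 0 had an unadjusted p under 0.05, and 0% of all tested genes passed in either direction, with 331 under an unadjusted 0.05. DESeq2 called 0 as well. The differences ran from -0.17 ± 0.15 for ACACA to 0.29 ± 0.53 for ANGPTL8. FASN was at -0.09 ± 0.19 (95% interval -0.50 to 0.31) and PNPLA3 at 0.18 ± 0.22 (-0.30 to 0.65), so rises of the size seen without radiation lay outside both intervals. SCD was at 0.23 ± 0.14 (-0.06 to 0.53).

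Whether CS2164 acted differently with and without radiation was tested as the interaction. In edgeR 0 of the 10 genes and 0% of all tested genes passed in either direction. Without GPAM and ANGPTL8, picked for falls after radiation, 0 of 8 passed. An unadjusted p under 0.05 was seen in 6 of the 10 and in 2732 of the tested genes. The 6 were all negative, which is the sign of a smaller CS2164 difference in irradiated tumours. Over 13501 tested genes the interaction ran with GC content, at a Spearman's rho of -0.394, and its part in these signs was not tested. FASN was at -1.24 ± 0.27 and ACACA at -1.03 ± 0.21, each with an adjusted p of 0.0839, PNPLA3 at -1.21 ± 0.31 (adjusted p = 0.101), ACLY at -0.59 ± 0.23, SCD at -0.58 ± 0.20 and SREBF1 at -0.49 ± 0.21. DESeq2 called 4 of them, FASN, SCD, ACACA and PNPLA3. Of all 13521 tested genes DESeq2 called 424 lower and 215 higher in the interaction, where edgeR called 0. With GC and length trends removed FASN was at -0.70, ACACA at -0.78 and SREBF1 at 0.021, of which ACACA passed. In that fit 56 of all tested genes were lower and 24 higher.

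Averaged over both arms, CS2164 raised SCD by 0.52 ± 0.10 (adjusted p = 0.0477), 1 of the 10 genes, where 0.133% of tested genes rose and 0.0444% fell (18 and 6 genes; 8 and 5 with upper-quartile scaling, under which SCD did not pass). For SCD the averaged value joins 0.81 ± 0.14 without radiation and 0.23 ± 0.14 with it, and the latter did not pass. PNPLA3 at 0.78 ± 0.16 had an adjusted p of 0.0510, and FASN at 0.52 ± 0.14 and SREBF1 at 0.41 ± 0.11 of 0.0637. The call of SCD was kept in 4 of 12 fits without 1 library, those without control replicate 1, CS2164 replicate 1 or 2, or CS2164_IR replicate 1, with values of 0.49 to 0.53 where it was lost.

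Other genes of the pathway were described in 7 lists, with the numbers called and the median log2 difference; the shares of all tested genes against which each count stands are 10.4% up and 9.32% down with CS2164, 3.78% up and 5.91% down in CS2164_IR against CS2164, and 3.45% up and 4.16% down for radiation averaged. Among 24 tested regulators of lipogenesis, 7 rose and 0 fell with CS2164, where 10.4% of all tested genes rose, with a median of 0.25. IRS1, which relays the insulin receptor, rose by 0.99 ± 0.17 from 114 ± 29.9 to 226 ± 34.0 CPM. SCAP, the escort that carries SREBPs from the endoplasmic reticulum, rose by 0.77 ± 0.15 and INSR, the insulin receptor, by 0.67 ± 0.13. These 3 calls held without each library in turn, and 6 of the list rose with GC and length trends removed, 5 without control replicate 2 and 2 with the compared groups alone.

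In CS2164_IR against CS2164, 7 of these 24 regulators fell and 0 rose, where 5.91% of all tested genes fell. RXRA, the partner of nuclear receptors such as LXR, fell by 0.81 ± 0.14, HNF4A, a hepatocyte nuclear receptor, by 0.81 ± 0.16 and IRS1 by 0.86 ± 0.17. The list's count was 3, 3 and 4 without CS2164_IR replicates 1, 2 and 3. Those 3 genes kept their calls. For radiation averaged over both arms 5 fell and 1 rose, where 4.16% of all tested genes fell and 3.45% rose. The number of falls was 7 without control replicate 2 and 3 without any 1 of control replicate 1 or 3, CS2164 replicate 3, the IR libraries or the CS2164_IR libraries. INSIG1, which holds SCAP back and is itself induced by SREBPs, fell by 0.48 ± 0.09, and NR0B2, a repressive nuclear receptor, rose by 0.65 ± 0.18, a call lost on omitting control replicate 1 or 3, CS2164 replicate 2 or 3, IR replicate 3, or CS2164_IR replicate 1 or 3 (0.48 to 0.69).

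Of 19 tested enzymes around fatty acid synthesis 1 rose with CS2164. This was ACACB, the mitochondrial acetyl-CoA carboxylase, at 0.66 ± 0.19, and its call ended without control replicate 2 (0.46) or CS2164 replicate 1 (0.54) and with GC and length trends removed (0.22). PKLR, the liver pyruvate kinase, fell after radiation in both arms. It fell by 1.25 ± 0.27 in IR against control, from 12.9 ± 3.28 to 5.42 ± 1.43 CPM, and by 1.27 ± 0.26 in CS2164_IR against CS2164, where 2 of the 19 fell, a call that ended without CS2164_IR replicate 3 (-1.18). For radiation averaged over both arms 2 of the list fell and 1, the elongase ELOVL4, rose by 0.78 ± 0.22, a call lost (0.68 to 0.82) on omitting control replicate 1 or 3, CS2164 replicate 3, IR replicate 1 or 2, or CS2164_IR replicate 2 or 3. The list's median was 0.02 with CS2164 and -0.01 with IR.

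Among 12 tested genes of desaturation and fatty acid activation, 3 rose with CS2164, where 10.4% of all tested genes rose, and 3 fell in CS2164_IR against CS2164, where 5.91% fell. The rises were 1 without control replicate 2 or with the compared groups alone. The falls were FADS2 at -0.66, FADS1 at -0.52 and ACSL4 at -0.65. All 3 calls ended without CS2164_IR replicate 1 or 3, those of FADS1 and ACSL4 also without CS2164 replicate 2 or 3, and that of ACSL4 without IR replicate 2 or CS2164_IR replicate 2. In those fits FADS2 was at -0.58 to -0.65, FADS1 at -0.47 to -0.51 and ACSL4 at -0.49 to -0.67. FADS2, the delta-6 desaturase, rose by 0.89 ± 0.17 from 577 ± 110 to 1066 ± 119 CPM and kept its call without each library. FADS1, the delta-5 desaturase, rose by 0.51 ± 0.14, which ended without control replicate 2 (0.40) and with the trends removed (0.14). SLC27A4, a fatty acid transporter, rose by 0.54 ± 0.17, a call lost when control replicate 2 (0.40), either of CS2164 replicates 1 (0.44) and 2 (0.52) was omitted, and with the trends removed (0.35). ACSL4, which activates arachidonate, fell by 0.91 ± 0.18 with IR, from 262 ± 22.5 to 139 ± 9.51 CPM.

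INSIG1 (-0.60 ± 0.13), PKLR and ACSL4 were the 3 genes of the 7 lists called in IR against control, all lower. They came from lists with 24, 19 and 12 tested genes, and the other lists had no call. Of all tested genes 0.229% were lower and 0.207% higher in this comparison. All 3 calls ended without any 1 of the control or IR libraries, CS2164 replicate 2, or CS2164_IR replicate 2 or 3. Their values in those fits were -0.54 to -0.67 for INSIG1, -1.04 to -1.44 for PKLR and -0.86 to -0.98 for ACSL4. For radiation averaged over both arms all 3 kept their calls without each library.

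Other genes of glycerolipid synthesis, 19 tested, had a median of 0.34 with CS2164, and 3 rose, where 10.4% of all tested genes rose. FITM2, which helps droplets bud from the endoplasmic reticulum, rose by 0.62 ± 0.17, and the acyltransferases AGPAT1 and AGPAT3 by 0.49 ± 0.15 and 0.38 ± 0.12. The count was 0 without control replicate 2 or 3 or with the compared groups alone, and 1 without control replicate 1, CS2164 replicate 1 or IR replicate 2. FITM2 was at 0.55 to 0.58 where its call was lost, AGPAT1 at 0.37 to 0.52 and AGPAT3, lost without any 1 library, at 0.31 to 0.42. AGPAT3 was at -0.12 with the trends removed. After radiation GPAT4, the other acyltransferase at the GPAM step in liver, was at 0.27 ± 0.14 in IR against control and did not pass. In CS2164_IR against CS2164, 2 of the 19 fell, where 5.91% of all tested genes fell. These were FITM2 (-0.78) and AGPAT3 (-0.54), and both calls ended without CS2164_IR replicate 1 or 3. For radiation averaged 1 fell, where 4.16% of all tested genes fell. This was AGPAT3 (-0.35), a call lost in 6 of 12 fits without 1 library.

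Of 14 tested droplet and lipolysis genes, PLIN3 and PLIN4, droplet coat proteins, rose by 0.61 ± 0.16 and 1.20 ± 0.35 with CS2164, and HSD17B11, a droplet-bound dehydrogenase, fell by 0.54 ± 0.19. Without control replicate 2 all 3 calls ended (0.52, 1.16 and -0.41), without CS2164 replicate 1 or control replicate 3 those of PLIN4 (as low as 0.76) and HSD17B11 (as near 0 as -0.33), and with the trends removed HSD17B11 was at 0.02. The HSD17B11 call also ended without IR replicate 2 or 3 or any CS2164_IR library. CES1, a liver triglyceride hydrolase, fell by 1.02 ± 0.18 in CS2164_IR against CS2164 and by 0.83 ± 0.13 for radiation averaged, both calls kept without each library; of the list 3 fell in the former comparison (1 without any 1 CS2164_IR library) and 1 in the latter (3 without CS2164 replicate 1). PLIN1, the coat of large droplets, was at -1.39 ± 0.31 in IR against control with an adjusted p of 0.0534.

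Lipoprotein lipase, the enzyme that ANGPTL8 helps to inhibit, and its anchor were not tested, since LPL had at most 2 reads and GPIHBP1 at most 2 reads in any library. Of 11 tested genes of this list, APOB, the scaffold of liver lipoproteins, rose by 0.77 ± 0.17 with CS2164, from 4004 ± 609 to 6850 ± 1258 CPM. It fell by 1.39 ± 0.18 in CS2164_IR against CS2164 and by 1.07 ± 0.12 for radiation averaged. LIPG, endothelial lipase, fell by 0.47 ± 0.11 for radiation averaged, and APOC1, a lipase inhibitor, rose by 0.80 ± 0.23 in CS2164_IR against CS2164, a call lost (0.67 to 0.83) on omitting CS2164 replicate 2 or 3, IR replicate 2, or CS2164_IR replicate 1 or 3.

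Sterol-regulated genes, which respond to SREBP2, gave 6 rises and 1 fall of 16 with CS2164, where 10.4% of all tested genes rose and 9.32% fell. The rises were 4 without control replicate 2 or CS2164 replicate 1 and 3 with the compared groups alone. CYP51A1, a demethylase of cholesterol synthesis, rose by 1.43 ± 0.29, a call kept without each library in turn. IDI1, an isomerase of the same pathway, fell by 0.69 ± 0.19, which ended without control replicate 2 (-0.50) or CS2164 replicate 1 (-0.46). Of the 16, 4 fell in CS2164_IR against CS2164, where 5.91% of all tested genes fell, and 4 for radiation averaged, where 4.16% fell. The former count was 2 without CS2164_IR replicate 3, and the latter 2 without IR replicate 1 or CS2164_IR replicate 3 and 6 without CS2164 replicate 1. HMGCS1, a synthase early in that pathway, fell by 0.46 ± 0.10 for radiation averaged. In CS2164_IR against control, in CS2164_IR against IR and in the interaction 0 genes of the 7 lists passed in edgeR.

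**Figure D4:**
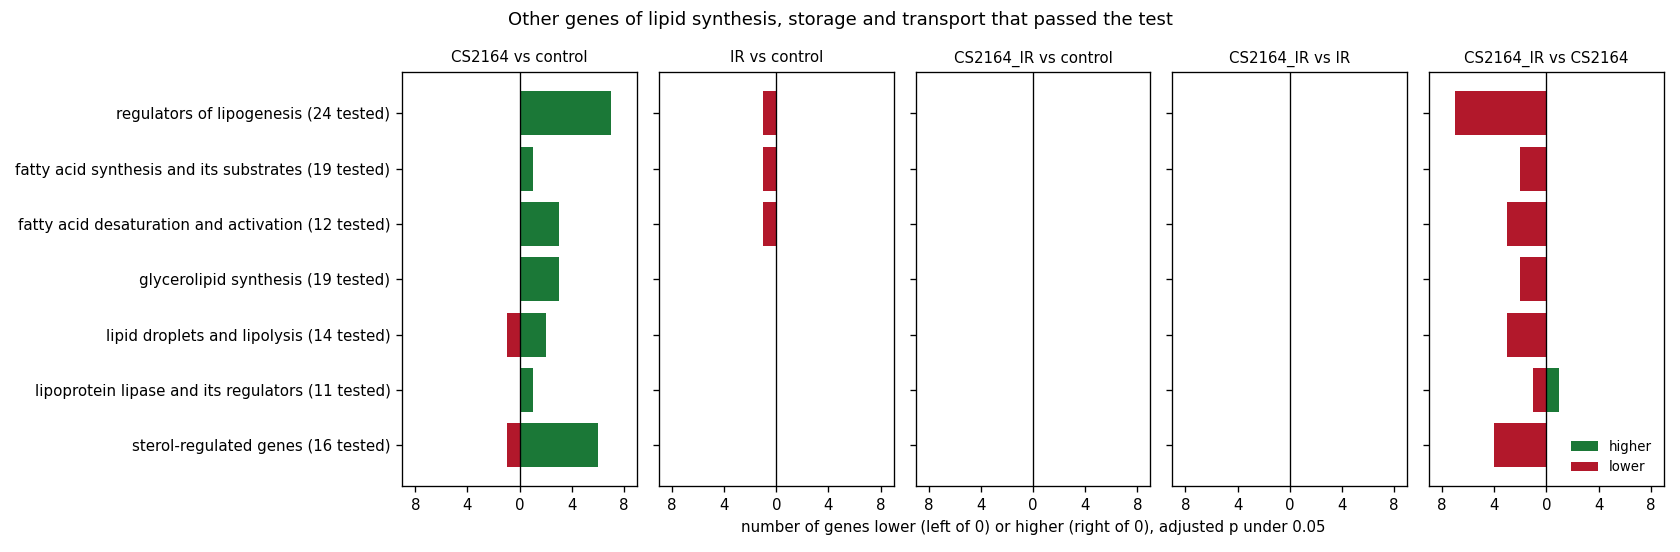
Number of other genes called lower (left of 0) or higher (right of 0) in each of the 7 lists for the 5 comparisons of group pairs, with the number tested in brackets. Rises stand in CS2164 against control, 7 among the regulators and 6 among sterol-regulated genes, and falls in CS2164_IR against CS2164.

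The genes whose log2 CPM followed GPAM most closely over the 12 libraries, by Pearson's r among genes of at least 1 CPM, were PID1 (r = 0.966), SLC44A1 (0.956), TRIM24 (0.951), CTXND1 (0.948) and PEG10 (0.940). They have GC contents of 40.1% to 49.0%, as GPAM has 41.8%. Nearest to FASN were POM121 (r = 0.993), HCFC1 (0.987), DOT1L (0.986) and LRP10 (0.984), with GC contents of 57.5% to 62.8% beside 65.3% for FASN. These are descriptions over 12 libraries that fall into 4 treatment groups.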

How the data were processed

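Poly-A RNA from 12 xenograft tumours was sequenced with a protocol that does not mark strand, per the labels' protocols. The authors deposited read counts and FPKM for 19988 genes; per the submitters' processing notes they used HISAT2 2.1.0, HTSeq 0.9.1 and GRCh38. How mouse reads were handled, and which annotation was used, is not given in the sources used here. In the deposited table FPKM equals count over total and gene length, as checked on the file. Symbols, positions and GC content came from GENCODE 29.

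The counts were fitted with edgeR 4.0.16 (R 4.3.3): filterByExpr (13521 genes kept), TMM scaling, 1 robust quasi-likelihood model of all 12 libraries with a coefficient per group, and Benjamini-Hochberg adjustment over all tested genes within each of 8 comparisons, threshold 0.05. SE was the log2 fold change over the root of F, and 95% intervals used the t quantile of the fit. The scripts were tested on simulated data.

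Alternatives changed the scaling (RLE, upper quartile), the filter (none, or at least 1 CPM on average), the test (DESeq2 1.42.0, limma 3.58.1 voom) or the design (replicate numbers as blocks); others were the removal of each library's spline trends (4 degrees of freedom) over GC content and length, the compared groups alone, and omitted libraries.

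The members and gene lists were chosen with earlier results of these data known. Named genes were all members, up to 3 passing genes per list, comparison and direction by adjusted p (2 with the lowest p where none passed), and the 5 genes most correlated with GPAM and with FASN. A few genes that this rule names are not reported here. LPL, GPIHBP1 and genes overlapping a member are named beside that rule, and some genes named in one comparison are given in another, after their values were seen.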

Additional observations from a re-analysis of the deposited data

Results flagged for a closer look

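ACACA, the acetyl-CoA carboxylase of fatty acid synthesis, drew attention because its groups moved in opposite directions under the same contrast. All 3 IR libraries lay above all 3 control libraries, and all 3 CS2164_IR libraries lay below all 3 CS2164 libraries. Likewise all CS2164 libraries lay above control and all CS2164_IR libraries below IR. The difference between the arms, the interaction, was -1.03 ± 0.21 on the log2 scale with an edgeR adjusted p of 0.0839, so it did not pass. Its value was -0.78 with GC and length trends removed and an adjusted p of 0.029. ACACA was flagged by this same interaction value, so nothing is read from these p-values. Such complete separation of 3 against 3 libraries was seen upwards in 13.0% of tested genes for IR against control and downwards in 4.89% for CS2164_IR against IR. Upward separation in CS2164 against control was seen in 18.6%, and downward separation in CS2164_IR against CS2164 in 15.5%.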

How the results depend on the processing

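Of 1730 values of the 10 genes under 22 alternative settings, 1594 kept their direction and their side of the threshold, 42 lost the call, 42 gained one and 52 changed sign. None of the 21 calls on the 10 genes changed sign, and 11 of them were kept without each of the 12 libraries in turn. The 21 include the radiation calls of GPAM and ANGPTL8. Of these, GPAM in CS2164_IR against CS2164 and both genes for radiation averaged are among the 11. Both genes were picked for falls after radiation, so nothing is read from those calls. No cause was tested for the changes below.

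The number of the 10 genes called was 6 with CS2164 against control (5 to 6 without 1 library). In CS2164_IR against CS2164 it was 7 (4 to 8 without 1 library, the lowest without CS2164_IR replicate 3). Without GPAM and ANGPTL8, picked for falls after radiation, it was 5 there. In IR against control it was 1 (GPAM, picked for this), and 2 with no filter, 2 with DESeq2, 3 with GC and length trends removed, 2 without control replicate 2 and CS2164 replicate 1 together, and 0 to 2 without 1 library. In CS2164_IR against control it was 1 (GPAM again), with 2 by DESeq2, 2 with the trends removed and 0 to 2 without 1 library. For CS2164 averaged it was 1, against 2 with RLE and 0 with upper-quartile scaling, 4 with no filter, 6 by DESeq2, 2 with the trends removed, 4 without both libraries and 0 to 3 without 1. For IR averaged it was 5, or 3 without GPAM and ANGPTL8, and 3 to 6 of the 10 without 1 library. In the interaction it was 0, against 2 with no filter, 4 by DESeq2, 1 with the trends removed and 2 without both libraries. Of all tested genes, 10.4% rose and 9.32% fell with CS2164 against control, and 3.78% and 5.91% in CS2164_IR against CS2164. In IR against control 0.207% rose and 0.229% fell, and in CS2164_IR against control 0.148% and 0.0444%. For CS2164 averaged 0.133% rose and 0.0444% fell, for IR averaged 3.45% and 4.16%, and in the interaction 0% passed.

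Most sign changes were of values near 0; exceptions were AGPAT3 (0.38), HSD17B11 (-0.54) and the SREBF1 interaction (-0.49), which changed sign with the trends removed. With the trends removed ELOVL6 was at 0.035 (CS2164 against control), 0.012 (IR against control), 0.053 (CS2164_IR against control), 0.017 (CS2164_IR against CS2164), 0.038 (CS2164 averaged) and 0.015 (IR averaged), SREBF1 at -0.11 (IR against control) and 0.021 (interaction), FASN at -0.028 (CS2164_IR against control), DGAT2 at 0.16 (interaction), AGPAT3 at -0.12 and HSD17B11 at 0.024 (CS2164 against control). Without control replicate 2 and CS2164 replicate 1 together ELOVL6 was at 0.10 (CS2164 against control), 0.059 (CS2164 averaged) and -0.083 (interaction), ACLY at -0.076 (IR against control) and -0.010 (CS2164_IR against control), SCD at -0.049 and PNPLA3 at -0.13 (both CS2164_IR against control) and SREBF1 at 0.031 (IR averaged). SCD was at -0.0093 with no filter (CS2164_IR against control), and ELOVL6 at 0.037 with upper-quartile scaling and 0.014 with voom (CS2164_IR against CS2164).

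Without 1 library, ANGPTL8 ranged from -0.019 to 0.67 (CS2164 against control), -0.25 to 0.88 (CS2164_IR against IR) and -0.61 to 0.53 (interaction). ELOVL6 ranged from -0.19 to 0.13 (CS2164 against control), -0.022 to 0.094 (CS2164_IR against IR), -0.22 to 0.10 (CS2164_IR against CS2164), -0.089 to 0.071 (CS2164 averaged) and -0.11 to 0.21 (interaction). ACLY ranged from -0.075 to 0.25 and PNPLA3 from -0.30 to 0.077 (IR against control), and in CS2164_IR against control ACLY from -0.011 to 0.32, PNPLA3 from -0.13 to 0.25 and SCD from -0.049 to 0.12. GPAM ranged from -0.0063 to 0.15 (CS2164 averaged) and -0.19 to 0.11 (CS2164_IR against IR), SREBF1 from -0.11 to 0.010 (IR averaged) and DGAT2 from -0.34 to 0.0021 (interaction).

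Over all tested genes, 28 rose and 31 fell in IR against control, but 199 and 149 by DESeq2 and 134 and 202 with the trends removed. In CS2164_IR against control the numbers were 20 and 6, against 213 and 105 by DESeq2 and 124 and 129 with the trends removed. With the trends removed 1384 rose and 1281 fell in CS2164_IR against CS2164 and 1275 and 1185 for IR averaged. DESeq2 called 587 and 375 for CS2164 averaged and 215 and 424 for the interaction, where trend removal gave 24 and 56. Without 1 library the counts in IR against control ran from 0 and 0 (IR replicate 1) to 244 and 214 (CS2164 replicate 1), and in CS2164_IR against control from 0 and 0 (control replicate 2 or 3) to 242 and 194 (CS2164 replicate 1). For CS2164 averaged they were 279 and 153 without control replicate 1, and 0 without control replicate 2 or 3, CS2164 replicate 3, any IR library or CS2164_IR replicate 3.

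Libraries with the same replicate number did not deviate together: 3 of 18 pairs had a correlation of deviations over 0.1, with a range of -0.372 to 0.149. With the number as a replicate block, 0 of the 10 genes were called for CS2164 averaged in place of 1, and 1295 rose and 1146 fell with CS2164 against control. ANGPTL8 is limited by depth, with 7 to 89 reads per library.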
